A study of Mus musculus with 6 samples.

Results

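The mouse table held 42 genes named as forkhead transcription factors, out of 22667 genes in all and 21553 with a value in every library. They were picked by name alone, as Fox followed by a letter from a to s and a number, and all 42 had a value in every library. Foxl1, which this name pattern would include, was not analysed here, and Foxf1a does not match it because of its final letter. Of the 42 genes, 19 reached a mean of 1 cRPKM over the 6 libraries and were tested. The other 23 lay under that minimum and are described by their values. The unit, cRPKM, is the authors' corrected form of reads per kilobase of transcript scaled to the library size, so levels of different genes are compared per length.

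The libraries came from kidneys of 6 littermate embryos of a single pregnant female at E13.5. In 3 embryos both copies of Fat4 were mutated (Fat4-/-), and 3 were wildtype (Fat4+/+). All carried the strain label C57BL6/6 after 6 backcrosses, and each library held total RNA of the left and right kidney together, after most of the ureter had been cut away. The labels name no allele and no Cre driver. Separate embryos of 1 litter are the replicates here, and their labels do not give their sex.

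Forkhead factors share a winged-helix domain, the forkhead box, that binds DNA, and they differ outside it. In the developing kidney Foxd1 marks the progenitors of the stroma that surrounds the branching ureteric bud, Foxd2, Foxc1 and Foxc2 are genes of the metanephric mesenchyme, and loss of Foxc1 is known to give duplicated ureters. Foxo factors respond to insulin and growth factor signals through Akt, Foxm1 drives genes of mitosis, Foxj1 directs motile cilia, and Foxi1 directs acid-secreting intercalated cells of the collecting duct. Fat4 is an atypical cadherin of the stroma, and the comparison asks how gene expression in the embryonic kidney differs when it is mutated.

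Because close relatives in the family are nearly alike within the forkhead box, the coding stretches of the pairs on which the results turn are shown first, from the GENCODE M21 transcripts. Each is 90 bases, 5′ to 3′, and capitals mark the bases that differ within a pair.

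Foxc1: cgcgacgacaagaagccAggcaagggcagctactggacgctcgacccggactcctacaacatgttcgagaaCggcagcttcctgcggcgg
Foxc2: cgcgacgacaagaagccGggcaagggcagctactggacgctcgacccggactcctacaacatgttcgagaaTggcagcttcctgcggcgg
Foxd1: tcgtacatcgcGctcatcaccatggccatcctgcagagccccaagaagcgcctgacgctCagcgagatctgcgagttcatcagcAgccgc
Foxd2: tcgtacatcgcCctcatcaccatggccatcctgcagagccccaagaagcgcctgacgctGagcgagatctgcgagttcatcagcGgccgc
Foxo1: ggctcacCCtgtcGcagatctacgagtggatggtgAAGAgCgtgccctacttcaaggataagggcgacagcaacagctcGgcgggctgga
Foxo3: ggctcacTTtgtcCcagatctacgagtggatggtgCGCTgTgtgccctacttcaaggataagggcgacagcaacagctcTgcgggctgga

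The stretch begins at coding base 421 in Foxc1 and 400 in Foxc2, at 400 in Foxd1 and 397 in Foxd2, and at 530 in Foxo1 and 527 in Foxo3. Foxc1 and Foxc2 differ at 2 of the 90 bases, Foxd1 and Foxd2 at 3, and Foxo1 and Foxo3 at 9. Over the best ungapped 300 bases the identity is 91.7%, 93.0% and 81.0% in these pairs. The longest identical run is 53 bases between Foxc1 and Foxc2, 47 between Foxd1 and Foxd2 and 38 between Foxo1 and Foxo3. How reads from such runs were assigned, and whether the counting used strand, is not stated in the labels, so the values of close pairs are uncertain to that extent. For Foxm1, Foxn3 and Foxj3 the longest run shared with any other member was 15, 15 and 17 bases.

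Over the whole series, Fat4 (ENSMUSG00000046743) stood at 15.69 to 16.83 cRPKM across the wildtype embryos, while the mutants had 7.20 to 7.82. Libraries correlated at 0.991 to 0.996 (Pearson, across genes, which are not independent replicates), and had summed cRPKM from 473695 to 503223. Total read numbers are not in the table; the spacing of low values gave relative depths from 0.902 to 1.036, with wildtype embryo 1 set to 1. Y-linked genes were expressed in all wildtype libraries and in mutant embryo 1 (Ddx3y 23.1 to 24.64 cRPKM) and at most 0.05 in mutant embryos 2 and 3, so sex was uneven between the genotypes. Over all 12315 tested genes 1.43% passed at an adjusted p under 0.05 (limma on log2(cRPKM + 1), Benjamini-Hochberg over all tested genes), 0.552% higher and 0.877% lower in mutants.

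The forkhead family was represented in part in the E13.5 kidney. The minimum was reached by 19 of its 42 members, against 12315 of the 21553 genes with a value in every library. The cRPKM of the family summed to 332.67, 355.06 and 357.81 in the wildtype libraries and to 362.43, 378.16 and 378.25 in the mutant libraries. Each mutant sum lay above each wildtype sum. The same held for the Sox genes, at 190.42 to 213.1 in wildtype and 214.8 to 229.31 in mutant libraries. Sums of the Hox genes overlapped, at 697.81 to 765.61 and 726.45 to 770.4. The 3 genes with the highest mean, Foxd1, Foxc2 and Foxp4, held 35.3% of the summed level and lay close together at 42.6, 42.5 and 42.3 cRPKM. Foxm1 and Foxk2 followed at 33.0 and 32.6, then Foxo4, Foxc1, Foxj3, Foxp1 and Foxd2 between 23.2 and 15.1, and Foxo3, Foxk1, Foxo1, Foxn2, Foxn3 and Foxj2 between 14.7 and 6.47. Foxp2 stood at 3.67, Foxj1 at 1.12 and Foxq1 at 1.09 cRPKM. The median level of the 19 tested members was 15.1 cRPKM, against 13.6 over all tested genes.

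**Figure D1:**
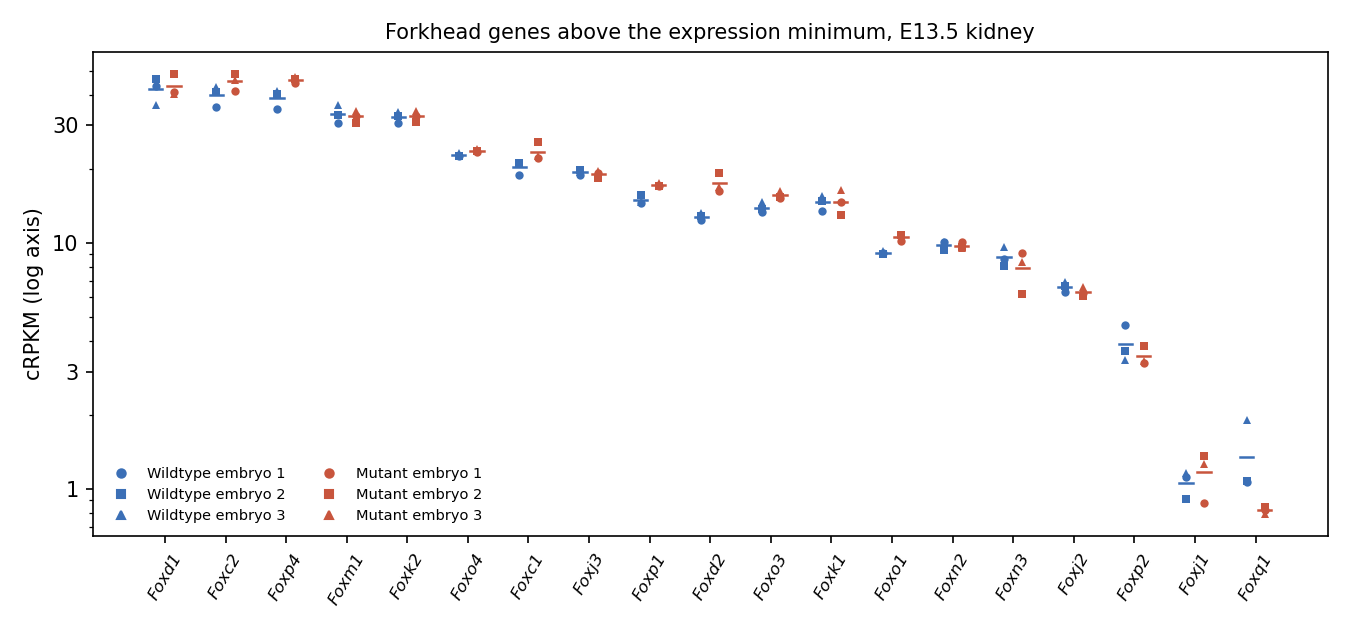
Level of each of the 19 tested forkhead genes in every library, in cRPKM on a log axis, ordered by the mean over the 6 libraries; points are embryos (marker shape gives the embryo number), short lines the group means. The mutant points of Foxd2 (16.16 to 19.27) lie clear of the wildtype points (12.37 to 13.18), while those of Foxd1 lie among the wildtype points.

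Of the 19 tested members, 1 passed over all genes, Foxd2, which was higher in mutants, and 18 did not. That is 5.26% of the members against 1.43% of all tested genes, from a single gene. An unadjusted p under 0.05 was reached by 7 members, 6 higher and 1 lower, against 13% of all tested genes (5.08% higher and 7.97% lower). Mutant and wildtype values did not overlap for 8 members, with mutants above for 7 and below for 1, against 18.2% of tested genes (7.23% above and 11% below). The 1 lower member in both counts is Foxq1, which reached the minimum only through its wildtype values. The median difference was 0.04 on the log2 scale over the 19 members and -0.01 over all tested genes, with 12 members above 0 and 7 below. For other transcription factor families of the kidney, none of 11 tested Sox genes and none of 33 tested Hox genes passed, with 1 and 3 at an unadjusted p under 0.05, all higher in mutants, and medians of 0.07 and 0.01.

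**Figure D2:**
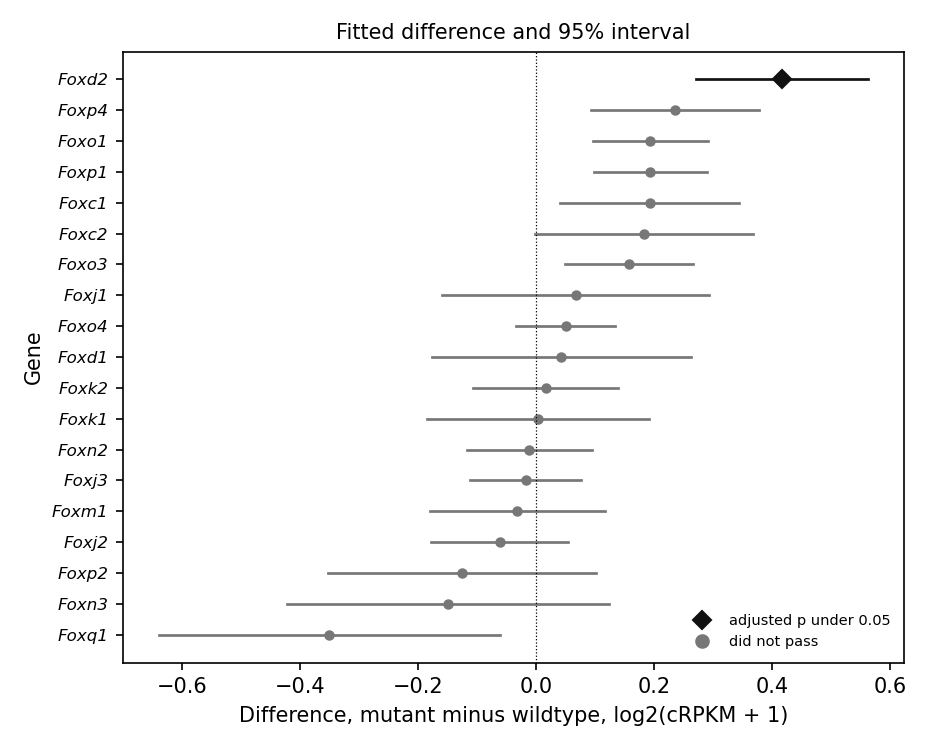
Fitted difference between mutant and wildtype kidneys for the 19 tested forkhead genes on the log2(cRPKM + 1) scale, with its 95% interval; the diamond marks the gene with an adjusted p under 0.05. Foxd2 is the highest at 0.42, and the intervals of Foxp4, Foxo1, Foxp1, Foxc1, Foxo3 and Foxq1, the last of which reached the minimum only through wildtype, also leave out 0.

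Foxd2 (ENSMUSG00000055210, chromosome 4, 114906282 to 114908873, GRCm38), a gene with a single coding exon, rose in the mutant kidneys. It stood at 12.37, 12.80 and 13.18 cRPKM in the wildtype embryos, against 16.16, 19.27 and 16.91 in the mutants. The wildtype values were tight and every mutant value lay above them, mutant embryo 2 furthest. The mean went from 12.8 ± 0.405 to 17.4 ± 1.62 cRPKM (SD, n = 3), a ratio of 1.36 (log2 fold change 0.42, SE 0.0637, limma adjusted p = 0.0231). It ranked 80 of the 12315 genes by p. In such whole-kidney RNA, more cells that express a gene and more RNA per cell cannot be told apart. Nephron progenitor markers were higher in the same libraries: 3 of 19 tested passed and rose (Eya1, Osr1 and Meox2, of which Osr1 and Meox2 were not called when wildtype embryo 1 or any 1 mutant was left out), 13 were higher at an unadjusted p under 0.05, and the list summed to 711.87 to 779.58 cRPKM in wildtype and 833.74 to 919.6 in mutants. Relative to that sum, Foxd2 was at 1.64% to 1.77% in wildtype and 1.84% to 2.21% in mutant libraries, which did not overlap (exact permutation test, 2-sided p = 0.1, the smallest that 3 against 3 allow). The part of the progenitor markers in the Foxd2 difference was not tested beyond these values.

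The Foxd2 call was lost without wildtype embryo 1 or 2 (adjusted p = 0.0626 and 0.0574) or without mutant embryo 1, 2 or 3 (0.0502, 0.0586 and 0.0804), and it held without wildtype embryo 3 (0.0359). It was also lost with no filter on low values, which raised the tested genes to 18735 (0.0801). When the mean log2 level of 4 Y-linked genes was added as a covariate (the Y-linked score), the difference was 0.32 (limma adjusted p = 0.4997). In that fit 2 of all tested genes passed. Mutant embryo 1, which expressed Y-linked genes as the wildtype embryos did, was the lowest mutant, at 16.16 against at most 13.18 in wildtype. With only 1 such mutant, the parts of sex and genotype in the Foxd2 difference cannot be told apart.

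Among the genes within 100 kb of Foxd2, Foxe3, a lens gene 16.3 kb away, was at 0 to 0.02 cRPKM in every library. Gm12830, at 50.12 kb, was under the minimum and not tested, at 0.15, 0.16 and 0.12 cRPKM in wildtype embryos and 0.18, 0.22 and 0.18 in mutants. Its mutant values all lay above the wildtype ones, as did those of 4.19% of genes with a mean of 0.1 to 1 cRPKM. The neighbours high enough to test, Cmpk1 at 50.46 kb and Stil at 91.29 kb, had differences of -0.03 and -0.10 and did not pass (adjusted p = 0.868 and 0.475).

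Foxd1 (chromosome 13, 98354242 to 98359305), the gene of stromal progenitors and the closest tested relative of Foxd2, was at 43.33, 46.16 and 36.36 cRPKM across the wildtype embryos, while the mutants had 40.88, 48.28 and 40.37. The groups overlapped and wildtype embryo 3 was the lowest. Its difference was 0.04, with a 95% interval from -0.18 to 0.26 (adjusted p = 0.901), and it changed sign when wildtype embryo 3 or mutant embryo 2 was left out. As a percentage of Foxd1, Foxd2 stood at 28.5, 27.7 and 36.2 in the wildtype embryos, against 39.5, 39.9 and 41.9 in the mutants. The mutant values did not overlap the wildtype ones (log2 difference 0.40, exact permutation p = 0.1, the smallest possible here), and wildtype embryo 3, where Foxd1 was low, came closest to the mutants.

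Among 20 tested markers of the cortical stroma, the compartment of Foxd1, none rose and 2 fell, the growth factor receptor gene Pdgfra and the transcription factor gene Zeb2 (log2 fold changes -0.48 and -0.41, adjusted p = 0.00427 and 0.0191), and the median difference was -0.10. The list summed to 1095.27 to 1238.68 cRPKM in the wildtype embryos, against 1073.35 to 1118.75 in the mutants, and Foxd1 made up 3.32% to 3.93% and 3.61% to 4.40% of that sum, which overlap. With mutant embryo 2 or 3 left out, Zeb2 no longer passed (largest adjusted p 0.0796).

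Foxc1 and Foxc2, which act together in mesenchyme, somites and blood vessels, had differences above 0 without passing. Foxc1 (chromosome 13, 31806633 to 31812476) was at 18.86, 21.18 and 20.82 cRPKM across the wildtype embryos, while the mutants had 22.00, 25.56 and 22.51, so the groups did not overlap, by a narrow margin. The difference was 0.19 (SE 0.0662, 95% interval 0.04 to 0.34, limma adjusted p = 0.259). Foxc2 (chromosome 8, 121116171 to 121118895) was at 35.51, 40.90 and 42.96 in the wildtype embryos, against 41.22, 48.66 and 45.94 in the mutants. Here wildtype embryo 3 overlapped the mutants, and the difference was 0.18 with a 95% interval from -0.0017 to 0.37 (limma adjusted p = 0.388).

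The ratio of this pair hardly moved. Foxc1 was at 53.1%, 51.8% and 48.5% of Foxc2 in wildtype and at 53.4%, 52.5% and 49.0% in mutant libraries (log2 difference 0.01, exact permutation p = 0.7). The genes lie on different chromosomes, but share the long identical stretch shown above. Foxc1 lies in a cluster with Foxf2, 175.2 kb away, and Foxq1, 245.7 kb away. Foxf2 was at no more than 0.05 cRPKM in any library, and Foxq1 had a difference of -0.35. With the Y-linked score as covariate the differences of Foxc1 and Foxc2 were 0.11 and 0.05.

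**Figure D3:**
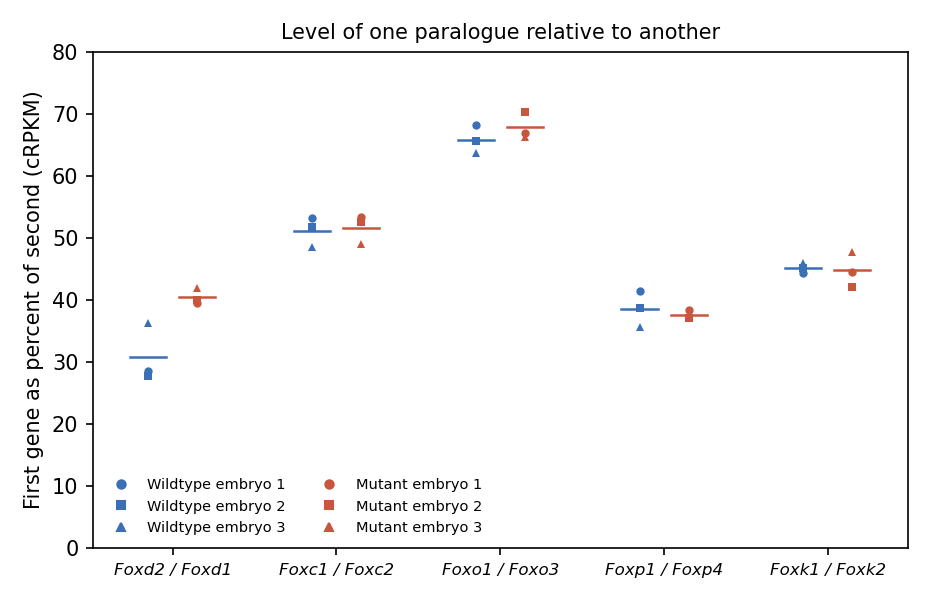
Level of a forkhead gene as a percentage of a relative in each library, from cRPKM, with points for embryos and short lines for group means. Only the ratio of Foxd2 to Foxd1 separates the genotypes among the 5 pairs plotted; the ratio of Foxc1 to Foxc2 stays between 48.5% and 53.4%.

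The Foxp factors, repressors with a zinc finger and a leucine zipper that pair with each other, divided. Foxp4 (chromosome 17, 47867133 to 47924645), the most abundant of them, was at 35.02, 40.35 and 41.16 cRPKM in the wildtype embryos, against 44.40, 46.07 and 47.03 in the mutants. Every mutant value was above every wildtype value, and the ratio of means, 1.18, was the largest after that of Foxd2 among tested members. The difference was 0.24 (SE 0.0622, 95% interval 0.09 to 0.38, limma adjusted p = 0.128). Foxp1 (chromosome 6, 98925338 to 99522721) was at 14.50, 15.57 and 14.66 in the wildtype embryos, against 16.99, 17.08 and 17.50 in the mutants. It had the smallest adjusted p of the members after Foxd2 (difference 0.19, SE 0.0419, limma adjusted p = 0.0723), and an unadjusted p under 0.05 under all 15 alternative settings.

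Foxp2, better known from neurons and lung, was far lower, at 4.65, 3.65 and 3.35 cRPKM across the wildtype embryos, while the mutants had 3.24, 3.81 and 3.32. Its groups overlapped (difference -0.13, adjusted p = 0.665). Foxp3, the factor of regulatory T cells, was at 0.05 to 0.10 in every library. Foxp1 stood at 35.6% to 41.4% of Foxp4 in wildtype and 37.1% to 38.3% in mutant libraries. In the annotation, Foxp1 overlaps a gene model on the same strand that the table names Eif4e3, which had a difference of 0.03 (adjusted p = 0.866). Of 15 tested cofactors that Foxp and Foxk proteins recruit or that bind DNA with them, none passed, and 1 was higher at an unadjusted p under 0.05, the corepressor Ctbp1 (difference 0.11, adjusted p = 0.366).

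The 3 tested Foxo factors, which Akt keeps out of the nucleus, had differences above 0, and none passed. Foxo1 (chromosome 3, 52268336 to 52353221) was at 9.06, 8.99 and 9.27 cRPKM in the wildtype embryos, against 10.16, 10.80 and 10.73 in the mutants, with no overlap and little spread in either group. The difference was 0.19 (SE 0.0424, 95% interval 0.10 to 0.29, limma adjusted p = 0.0745). Foxo1 lies 13.26 Mb from Fat4 on the same chromosome. Of the 99 tested genes within 20 Mb of Fat4, 8.08% passed and 35.4% had groups that did not overlap, against 1.39% and 18.1% of the other 12029 tested genes with a position. The effect of the linked region on Foxo1 cannot be told apart from that of the Fat4 mutation in these embryos.

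Foxo3 (chromosome 10, 42181841 to 42276755), which has no such linkage, was at 13.30, 13.70 and 14.58 cRPKM across the wildtype embryos, while the mutants had 15.18, 15.36 and 16.19. Its groups did not overlap either (difference 0.16, SE 0.0476, limma adjusted p = 0.189). Foxo4, on the X chromosome, was at 22.56, 22.60 and 23.21 in the wildtype embryos, against 23.27, 23.59 and 24.05 in the mutants. The gap between those groups was small, and the difference of 0.05 did not pass (95% interval -0.03 to 0.13, adjusted p = 0.634). Foxo6, a neuronal member under the minimum, was at 0.43, 0.44 and 0.50 cRPKM in wildtype embryos and 0.41, 0.32 and 0.46 in mutants, which overlap.

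Among genes that Foxo factors are known to activate, 2 of 20 tested rose and none fell, against 0.552% and 0.877% of all tested genes. Bcl2l11, which encodes the cell death protein Bim, went from 22.6 ± 0.842 cRPKM in wildtype to 29.6 ± 0.642 in mutants (SD, n = 3; difference 0.38 on the log2 scale, limma adjusted p = 0.00805). It held in each of 6 fits with 1 library left out (largest adjusted p 0.0459), though not with the Y-linked score (0.227). Trim63, for a muscle ubiquitin ligase, went from 2.61 ± 0.216 cRPKM in wildtype to 3.80 ± 0.221 in mutants (SD, n = 3; difference 0.41 on the log2 scale, limma adjusted p = 0.0247). Leaving out wildtype embryo 1 or any 1 mutant ended its call (up to 0.103). Over the list 10 members were above 0 and 10 below, with a median of 0.00. Mutant values lay above all wildtype values for 4 tested members and below for 3, against 7.23% and 11% of tested genes. At an unadjusted p under 0.05 in limma, 4 were higher and 1 lower, against 5.08% and 7.97%. Beside the 2 calls these were Cited2 at 0.19 (adjusted p = 0.240) and Fbxo32 at 0.16 (adjusted p = 0.289), both with mutants above wildtype, and Txnip at -0.16 (adjusted p = 0.0877).

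Of 24 tested regulators of Foxo factors, among them the subunits of PI3 kinase and Akt, none passed and 3 were lower at an unadjusted p under 0.05. They included the kinase gene Sgk3 (difference -0.20, adjusted p = 0.179) and the PI3 kinase subunit gene Pik3r1 (-0.14, adjusted p = 0.195). The mutant values of Sgk3 and Pik3r1 all lay below the wildtype values.

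Foxm1 (chromosome 6, 128362967 to 128376146), the activator of mitotic genes, was at 30.78, 33.06 and 36.22 cRPKM in the wildtype embryos, against 32.66, 30.73 and 34.31 in the mutants. A gene model that overlaps Foxm1 was at 0.32 to 0.53 cRPKM. The Foxm1 groups overlapped (difference -0.03, 95% interval -0.18 to 0.12, adjusted p = 0.887). Of its 20 tested target genes of G2 and mitosis 1 fell, the cyclin gene Ccna2, from 92.2 ± 0.639 cRPKM in wildtype to 79.8 ± 1.68 in mutants (SD, n = 3; difference -0.21 on the log2 scale, limma adjusted p = 0.0382). Leaving out any 1 of the 6 libraries ended that call (0.0836 to 0.140). Ccna2 lies 2.31 Mb from Fat4 on chromosome 3 (36564865 to 36572150), so here too the linked region and the Fat4 mutation cannot be told apart. Of the 20 targets 17 were below 0, with a median of -0.06, against 6998 of all 12315 tested genes and a median of -0.01. At an unadjusted p under 0.05 in limma, 3 were lower (Ccna2, Kif20a and Bub1), against 7.97% of tested genes. For 7 targets mutant values lay below all wildtype values, against 11% of tested genes. The list summed to 1224.74 to 1248.22 cRPKM across the wildtype embryos, while the mutants had 1157.83 to 1180.64, which did not overlap, while Foxm1 itself overlapped.

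The other widely expressed members did not pass. Foxk1 and Foxk2, repressors of autophagy and metabolic genes, were at 13.0 to 16.4 and 30.5 to 34.4 cRPKM over all libraries, with differences of 0.00 and 0.02 (adjusted p = 0.991 and 0.938) and 95% intervals from -0.18 to 0.19 and from -0.11 to 0.14. Foxn2 and Foxn3, relatives of the thymus factor Foxn1, were at 9.38 to 10.1 and 6.22 to 9.66 cRPKM, with differences of -0.01 and -0.15 (adjusted p = 0.951 and 0.667). The low value of Foxn3 was in mutant embryo 2, at 6.22 against 8.05 to 9.66 in the others. Foxj2 and Foxj3 were at 6.10 to 6.93 and 18.38 to 19.70 cRPKM, with differences of -0.06 and -0.02 (adjusted p = 0.680 and 0.907). For Foxj3, Foxn2 and Foxj2 the intervals stayed within 0.18 of 0, at -0.11 to 0.08, -0.12 to 0.09 and -0.18 to 0.05.

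Foxj1, the regulator of motile cilia, was barely above the minimum, at 1.12, 0.91 and 1.16 cRPKM in the wildtype embryos, against 0.88, 1.36 and 1.27 in the mutants, which overlapped (difference 0.07, 95% interval -0.16 to 0.29, adjusted p = 0.835). Its programme had 17 genes with values, of which 9 were high enough to test, and none passed. The outer values were those of 2 genes for cilia assembly, Ccdc39 at -0.23 (adjusted p = 0.166, 5.04 Mb from Fat4) and Ccdc40 at 0.15 (adjusted p = 0.313).

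Every mutant value lay below every wildtype value for 5 members, Foxq1, Foxa1 and Foxi1 and, at or under 0.04 cRPKM, Foxa2 and Foxd3. The same held for 11% of tested genes and for 9.81% of genes under the minimum and above 0 somewhere (15.7% of those with a mean of 0.1 to 1 cRPKM). Foxq1 (chromosome 13, 31556134 to 31560976), an epithelial gene, was at 1.07, 1.08 and 1.90 cRPKM across the wildtype embryos, while the mutants had 0.82, 0.85 and 0.79. Wildtype embryo 3 was far above the rest, the mutant values were all under the minimum, and the gene reached the minimum through the wildtype libraries. Its difference was -0.35 (SE 0.126, 95% interval -0.64 to -0.06, limma adjusted p = 0.279), and without wildtype embryo 3 it was under the minimum and not tested. A gene on the opposite strand overlaps Foxq1 and was at 0.08 to 0.15 cRPKM, and reads of the pair cannot be told apart if counting ignored strand. Foxa1 (chromosome 12, 57540628 to 57546916), a pioneer factor of endodermal and urogenital epithelia, was at 0.53, 0.50 and 0.94 in the wildtype embryos, against 0.18, 0.28 and 0.27 in the mutants, a ratio of means of 0.371. Foxi1 (chromosome 11, 34204338 to 34208089) was at 0.42, 0.58 and 0.58 in the wildtype embryos, against 0.18, 0.23 and 0.22 in the mutants, a ratio of 0.399.

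**Figure D4:**
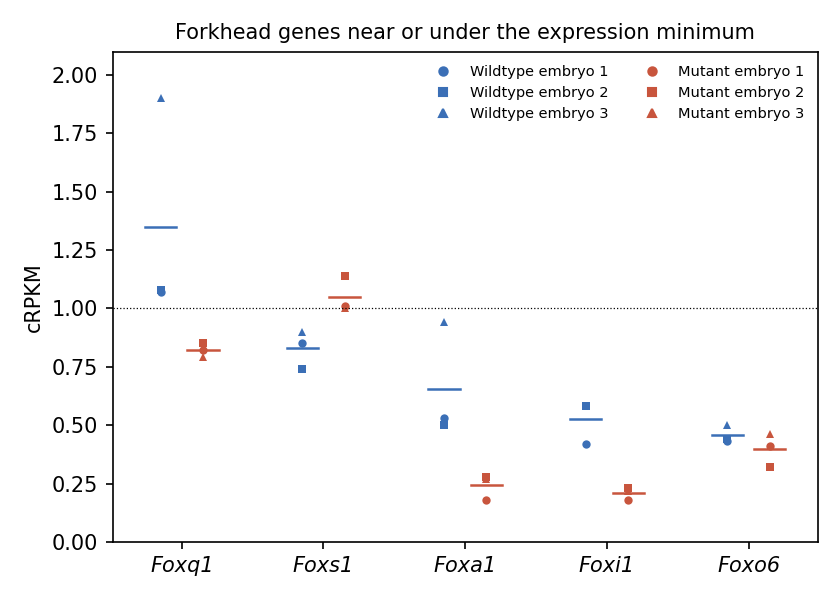
Foxq1 and the 4 highest forkhead genes under the expression minimum (dotted line at 1 cRPKM) in every library, on a linear axis; points are embryos, short lines group means, and wildtype embryos 2 and 3 coincide at 0.58 for Foxi1. Mutant points lie below wildtype points for Foxq1, Foxa1 and Foxi1 and above them for Foxs1.

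Foxa1 and Foxi1 were under the minimum and so outside the main comparison. Tested with no filter on low values, Foxi1 was at -0.33 (limma adjusted p = 0.0714) and Foxa1 at -0.40 (limma adjusted p = 0.175), and neither passed. The unfiltered differences are small beside the ratios because 1 was added to values that are themselves under 1. With 0.1 added in place of 1, a choice made after seeing the data, they were -1.01 and -1.11 (adjusted p = 0.0613 and 0.128).

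Among 15 tested markers of ureteric epithelium, the branching tube that becomes the collecting ducts, none passed, 9 were lower and none higher at an unadjusted p under 0.05, the median difference was -0.17, and the list summed to 404.71 to 496.82 cRPKM in the wildtype embryos, against 413.46 to 431.61 in the mutants, which overlap. Wildtype embryo 3, the highest for Foxq1 and Foxa1, also had the highest sum. Relative to that sum Foxi1 was at 0.104% to 0.135% in wildtype and 0.0435% to 0.0550% in mutant libraries. For Foxa1 these shares were 0.116% to 0.189% and 0.0435% to 0.0670%, and for Foxq1 0.252% to 0.382% and 0.183% to 0.203%. Each share was lower in all mutants than in all wildtype libraries (exact permutation p = 0.1 for each, the smallest possible). In all, 11 ratios were compared in this way, and with 3 libraries a group none could pass a threshold of 0.05 before or after adjustment. The part of the epithelial markers in these differences was not tested beyond these values. All 6 urothelial genes listed were under the minimum with overlapping groups. Upk1a, the highest, was at 0.90 to 0.99 cRPKM in wildtype embryos and 0.80 to 0.94 in mutants, Trp63 and Upk1b had means of 0.16 and 0.077, and Upk2, Upk3a and Krt5 of 0.03, 0.01 and 0.01 cRPKM.

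The intercalated cell genes that Foxi1 is known to direct were mostly too low to test, 3 of 12 reaching the minimum. Rhcg, which encodes an ammonia transporter, fell from 3.45, 3.19 and 3.61 cRPKM to 1.68, 1.61 and 1.65 (log2 fold change -0.74, SE 0.0576, limma adjusted p = 0.00187). The ratio of its means was 0.482. This call held in each of 6 fits with 1 library left out (largest adjusted p 0.0188), though not with the Y-linked score (0.115). Car2, a carbonic anhydrase gene, was at -0.21 (adjusted p = 0.260), and Slc4a1, an anion exchanger gene also listed for erythroid cells, at 0.15 (adjusted p = 0.761). Of the 9 genes under the minimum, mutant values lay below wildtype for 3 (Atp6v1b1, Slc4a9 and Rhbg), above for 1 (Aqp6) and overlapped for 5. Among all genes under the minimum and above 0 somewhere, 9.81% lay below and 2.91% above. The pump subunit gene Atp6v1b1 was at 0.11, 0.12 and 0.20 cRPKM in wildtype embryos and 0.03, 0.02 and 0.02 in mutants. The water channel gene Aqp6 went the opposite way, at 0.04, 0.06 and 0.03 in wildtype embryos and 0.14, 0.20 and 0.09 in mutants.

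Of the other members under the minimum, Foxs1, a gene of perivascular cells, was the highest, at 0.85, 0.74 and 0.90 cRPKM across the wildtype embryos, while the mutants had 1.01, 1.14 and 1.00. These did not overlap, and with no filter its difference was 0.16 (limma adjusted p = 0.253). Of 16 tested endothelial markers, none rose and 1 fell, the tight junction gene Cldn5 (log2 fold change -0.40, adjusted p = 0.0229), and 4 were lower and 1 higher at an unadjusted p under 0.05. That list summed to 280.34 to 298.48 cRPKM in the wildtype embryos, against 273.31 to 283.46 in the mutants, and Cldn5 did not pass when wildtype embryo 1 or any 1 mutant was left out (up to 0.0901).

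The remaining 19 members did not reach 0.15 cRPKM in any library. Among them were Foxa2, Foxa3, Foxb1, Foxb2, Foxd3, Foxd4, Foxe1, Foxe3, Foxf2, Foxh1, Foxi2, Foxi3, Foxl2, Foxn1, Foxn4, Foxp3, Foxr1 and Foxr2. Several mark other tissues: Foxl2 the ovary, Foxe1 the thyroid and Foxd3 the neural crest. Of those 3, Foxl2 reached 0.02, Foxd3 0.03 and Foxe1 0.01 cRPKM at most. Foxd3 was at 0.02, 0.03 and 0.03 in wildtype and is listed at 0, 0 and 0.01 in mutant libraries. Foxa2, a relative of Foxa1, was at 0.02, 0.03 and 0.04 in the wildtype embryos, against 0.01, 0.01 and 0 in the mutants. At this level a value is a few steps of the 2 decimals of the table, and neither difference passed with no filter (adjusted p = 0.352 for Foxd3 and 0.399 for Foxa2).

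Over the 23 members under the minimum the mutant mean was lower for 11, higher for 11 and equal for 1, against 59.5% lower among 6420 genes under the minimum and above 0 somewhere. Mutant values lay below wildtype for 4 and above for 1, against 9.81% and 2.91% of those genes. Of the 5 with a mean of at least 0.1 cRPKM, Foxa1 and Foxi1 lay below and Foxs1 above, against 15.7% and 4.19% of the 3029 genes at that level.

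Hedgehog signals act upstream of Foxf and Foxl genes in other organs. Of 11 tested genes of that pathway 1 rose and 1 fell. Gas1, for a receptor partner of Hedgehog ligands, went from 79.3 ± 3.83 cRPKM in wildtype to 102 ± 6.83 in mutants (SD, n = 3; difference 0.36 on the log2 scale, limma adjusted p = 0.0298). Gli1, the target gene and transcription factor, fell from 22.0 ± 0.715 cRPKM in wildtype to 17.5 ± 0.629 in mutants (SD, n = 3; difference -0.31 on the log2 scale, limma adjusted p = 0.0196). Gas1 passed only without wildtype embryo 2 among the 6 fits that left out 1 library (elsewhere up to 0.115), and Gli1 only without wildtype embryo 3 (up to 0.0735). Foxf2 stayed at or below 0.05 cRPKM. Foxf1a, outside the naming rule, was at 0.11 to 0.24 in the wildtype embryos, against 0.06 to 0.14 in the mutants, which overlap.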

How the data were processed

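The authors deposited a single table of RPKM values, corrected to what they call cRPKM, in which genes carry a name and an Ensembl identifier and each embryo has a column. Bowtie and mm9 come from the submitters' processing notes, and neither versions nor the correction were stated in the sources read. Columns were matched through the header text in each sample's description. Of 22667 genes 1114 had no value.

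Adding 1 and taking log2 came first; limma (version 3.58.1, under R 4.3.3) then compared the genotypes by lmFit and a trended eBayes, 2-sided with no other term. The 12315 genes whose mean reached 1 cRPKM entered, and p-values reflect the spread between embryos of a single litter. P-values were adjusted by Benjamini-Hochberg over all of them, with calls at 0.05; the code was checked on simulated data. A log2 fold change understates the change of low genes. Ratios between genes were compared by exact permutation over the libraries. Positions and coding sequences are from GENCODE M21 on GRCm38, which differs from mm9; all 42 members matched by identifier.

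The members and the gene lists were chosen with earlier results of these data known, so no p was adjusted over a list and no list was tested as a set. Some genes are counted but their values are not reported here. Every tested member was named, with other genes of a list named when called or among the 3 smallest p. Members under the minimum were named by level, and listed genes under the minimum, Gm12830, Cited2, Fbxo32 and Slc4a1 were named after their values were seen. Lists not described elsewhere gave these calls: of podocyte markers 1 of 8 tested rose (Lmx1b), of ureter and smooth muscle markers 1 rose (Des) and 1 fell (Tshz3) of 5, of nerve and neural crest markers 1 of 6 fell (Fabp7), and none passed of 11 macrophage, 7 erythroid, 2 adrenal, 3 gonad, 2 skeletal muscle and 4 Y-linked genes. With 1 library left out, Tshz3 did not pass without any 1 mutant (adjusted p up to 0.0594), Des without mutant embryo 2 or 3 (0.0594), Lmx1b in 5 of 6 fits (0.147) and Fabp7 in all 6 (0.172). Fabp7 reached the minimum only through wildtype, with means of 1.50 cRPKM there and 0.883 in mutants.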

Additional observations from a re-analysis of the deposited data

How the results depend on the processing

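Over all genes 176 were called. The count was 32 with no filter on low values, 36 with no filter and 0.1 added (chosen after seeing the data), 273 with the embryo number as a block, 2 with the Y-linked score as a covariate, and 24 to 132 with 1 library left out. Among forkhead genes the 1 call, Foxd2, became 0 with no filter, with no filter and 0.1 added, and with the Y-linked score, and was 0 to 1 with 1 library left out. Members whose groups did not overlap numbered 13 with no filter, 5 of them under the minimum; pseudocounts, weights, the block and the covariate do not bear on that count. Whether embryos of the same number are pairs is not stated in the labels. Deviations from the group means correlated at 0.0985, 0.205 and 0.277 between same-numbered embryos, and at -0.373 to 0.227 between the others. Wildtype embryo 1 correlated best with mutant embryo 2, at 0.227. These values do not settle the pairing, so the block was kept as an alternative. With the embryo number as a block Foxd2 was at 0.42 (limma adjusted p = 0.0206). The other calls among members did not change with the block, and Foxp4 came to a limma adjusted p of 0.0504. The median over members ran from 0.02 to 0.06 except with no filter (0.0049).

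Signs changed for 8 members, none of which passed. With the Y-linked score Foxd1 was at -0.031, Foxn2 at 0.035, Foxn3 at 0.056 and Foxj1 at -0.13. With library weights Foxd1 was at -0.058, Foxn2 at 0.023 and the listed gene Slc4a1 at -0.054, and with quantile normalisation Foxn2 at 0.015. With 1 library left out Foxd1 ran from -0.054 to 0.11, Foxm1 from -0.086 to 0.028, Foxk2 from -0.024 to 0.054, Foxj3 from -0.037 to 0.0085, Foxk1 from -0.075 to 0.082 and Foxn2 from -0.042 to 0.0055. The cause of these changes was not tested. Call counts of the other gene lists moved by more than 1.5 times in 81 combinations of list and setting and stayed within it in 219. Read numbers behind members under 1 cRPKM are unknown, which limits their precision.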
